A study of Mus musculus with 8 samples.

Results

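The comparison described here is that of the libraries labelled *siOct4* with those labelled *siNcor1* at reprogramming day 3. It rests on 4 of the 8 libraries of the series, 2 per knockdown, and these were chosen by the labels alone. All 18990 genes of the deposited table were considered, and 13866 with a mean of at least 1 CPM (reads per 1000000 reads on genes, after the scaling in the deposited values) over the 8 libraries were tested.

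The cells were primary mouse embryonic fibroblasts (MEFs) of wild type BL6 mice, transduced with a doxycycline-driven lentiviral cassette for OCT4, SOX2, KLF4 and MYC (OSKM, tet-STEMCCA) together with the rtTA activator that it needs. They were then transfected with 40 nM of pooled siRNAs against *Ncor1* or against *Oct4* (gene symbol *Pou5f1*). Reprogramming was induced in doxycycline medium with chiron, Alk5 inhibitor, ascorbic acid and LIF, so every library, at day 3 and at day 6, came from cells with the TGF-beta receptor ALK5 inhibited. The knockdown was transient, and libraries of cells with a non-targeting siRNA were not analysed here. For that reason a gene raised by *siOct4* cannot be told apart from a gene lowered by *siNcor1*, and the same holds in the other direction. Higher, lower, rose and fell below compare *siOct4* with *siNcor1* on the same day. These words give no direction against cells with a non-targeting siRNA.

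Reprogramming of fibroblasts starts with the loss of mesenchymal traits, the matrix, contractile and inflammatory genes of the fibroblast, and with the gain of epithelial ones such as E-cadherin. OCT4 is one of the factors that drive this switch, while NCOR1 is a corepressor that recruits the histone deacetylase HDAC3 to nuclear receptors and other transcription factors. Late pluripotency genes such as *Nanog* are normally silent in fibroblasts and come on only in the cells that progress furthest.

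The day 3 libraries held 15961703 and 16445192 reads on genes in *siNcor1* and 14861698 and 7735742 in *siOct4*, so that replicate 2 of *siOct4* was the shallowest of the 8. A count of 3 reads stood for 0.380 CPM in that library and for 0.174 to 0.203 CPM in the other 3, and 801 genes had no read in it against 277 to 413 in the others. All 10 fibroblast markers were present, with a summed level of 6320 and 6440 CPM in *siNcor1* and 8850 and 10400 CPM in *siOct4*. None of them was called by the test on the log2 values. *Col1a1* made most of these sums, at 3810 and 3620 CPM in *siNcor1* and 5530 and 6730 CPM in *siOct4*. Of the markers of other cells, those of keratinocytes summed to 2.60 and 2.44 CPM in *siNcor1* and 3.18 and 3.29 CPM in *siOct4*, and those of macrophages and other blood cells to 18.9 and 15.5 CPM against 12.8 and 16.2 CPM. Endothelial markers summed to 57.7 to 60.4 CPM, nearly all of it from *Tek* and *Eng*, while *Pecam1* and *Cdh5* did not exceed 0.253 CPM in any of the 4 libraries. Neural markers summed to 74.3 and 88.5 CPM in *siNcor1* and 99.6 and 102 CPM in *siOct4*. Of the 5 tested, 3 had a difference above 0 and 2 below 0. *Tubb3* was called higher, at 33.6 and 41.1 CPM in *siNcor1* and 66.9 and 64.2 CPM in *siOct4*. *Mbp* went the other way, at 15.5 and 14.8 CPM against 9.75 and 10.8 CPM. The part of neural cells in the results was not tested. Skeletal muscle markers summed to 107 and 50.5 CPM in *siNcor1* and 124 and 106 CPM in *siOct4*, so the groups overlapped for this list.

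The targeted genes were examined first. *Ncor1* was at 135 and 146 CPM in *siNcor1* and at 226 and 245 CPM in *siOct4*. It was thus lower in both libraries labelled *siNcor1*, by 0.74 on the log2 scale (SE 0.12, adjusted p = 0.0139). *Pou5f1* was at 197 and 205 CPM in *siNcor1* and at 185 and 197 CPM in the libraries labelled *siOct4*. The difference was -0.08 (95% interval -0.42 to 0.27, adjusted p = 0.941), so at day 3 the *Pou5f1* level did not mark the libraries labelled *siOct4*. The table does not separate transcripts of the lentiviral cassette from endogenous ones. The other cassette factors *Sox2*, *Klf4* and *Myc* differed by 0.05, -0.07 and -0.05 (adjusted p = 0.963, 0.954 and 0.958).

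Across all tested genes, 148 were called at an adjusted p under 0.05, which is 1.07% of those tested. Of these, 52 genes were higher in *siOct4* (0.375%) and 96 lower (0.692%). The genes called higher included *Saa3*, *C3*, *Tnc* and *Cnn1*, of inflammation, matrix and contraction, and those called lower included *Cdh1*, *Epcam*, *Nr5a2* and *L1td1*, of epithelia and pluripotency. The gene lists used below held 22 of the 52 and 20 of the 96. The median absolute difference was 0.90 for the genes called higher and 1.36 for those called lower, on the log2 scale. Mean reads per library had a median of 530 over the former and 93.1 over the latter. At an unadjusted p under 0.05 the directions were nearly even, with 734 genes higher (5.29%) and 726 lower (5.24%), and the median difference over all tested genes was -0.02. With voom, which weights each value by its read count, 158 genes were called, and 87 of these, or 55.1%, were higher in *siOct4*, where the test on the log2 values gave 35.1%. The calls depended on every library: with 1 library left out, between 3 and 50 genes were called, and without the shallow *siOct4* replicate 2 there were 39.

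**Figure D1:**
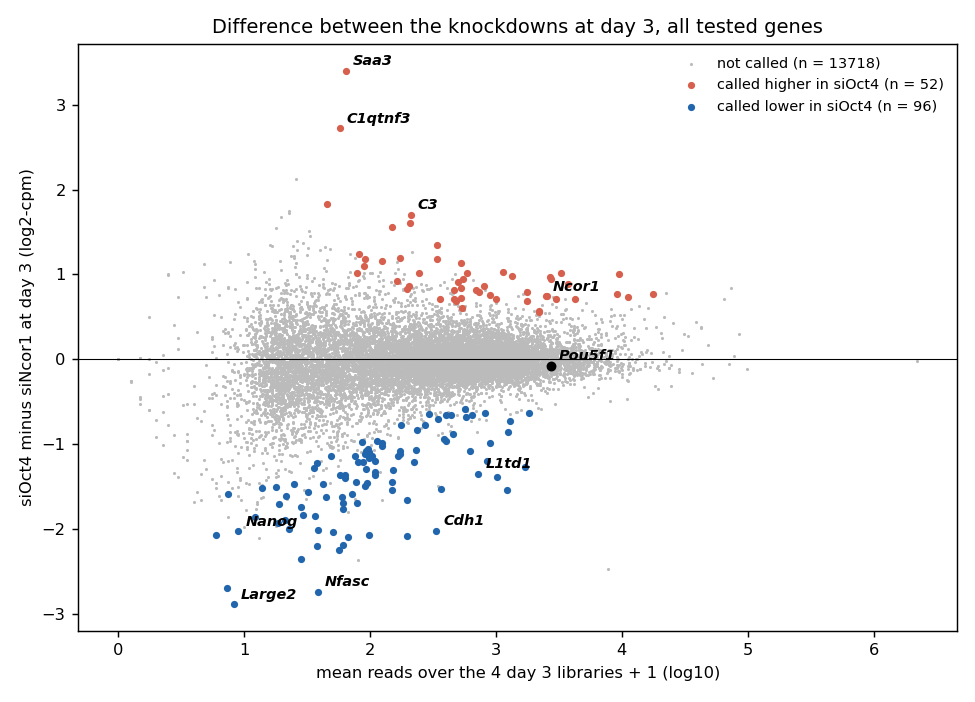
Difference between the knockdowns at day 3 (*siOct4* minus *siNcor1*, log2-cpm) against the log10 of the mean reads over the 4 day 3 libraries plus 1, with 1 point per tested gene. The 52 genes called higher (red) extend to the right of the plot, most of the 96 called lower (blue) sit in its left part, and *Pou5f1* (black) lies near 0.

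Because bulk RNA was measured, a change in the number of cells of a kind and a change in RNA per cell cannot be told apart in any of these differences. The replicates of all 148 called genes were separate between the knockdowns, as were those of 43.4% of all tested genes.

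The 15 genes with the largest positive differences included 4 members of the acute-phase and complement lists. *Saa3* (chromosome 7, 46711998 to 46715700, mm10) encodes an acute-phase serum amyloid A protein. It was at 0.681 and 0.986 CPM in *siNcor1*, from 11 and 17 reads, and at 9.82 and 10.1 CPM in *siOct4*, from 145 and 80 reads. The replicates were tight within each knockdown and far apart between them, and the difference was 3.40 (SE 0.45, adjusted p = 0.00591). *C1qtnf3*, a secreted C1q/TNF-related protein (chromosome 15, 10952332 to 10980150), was at 1.18 and 1.1 CPM in *siNcor1* and 8.2 and 8.35 CPM in *siOct4*, a difference of 2.72 (SE 0.37, adjusted p = 0.00673). *C3*, the central complement component, was at 7.18 and 8.47 CPM in *siNcor1* and 24.5 and 27 CPM in *siOct4*. Its difference was 1.70 (SE 0.31, adjusted p = 0.0235), or 3.25-fold. *Ccl2*, a monocyte-attracting chemokine, was at 14.5 and 15 CPM in *siNcor1* and 37.7 CPM in both *siOct4* libraries. It was 2.54-fold higher in *siOct4* (1.35, SE 0.20, adjusted p = 0.0088).

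The list of acute-phase and chemokine genes had 28 tested members. Only *Saa3* and *Ccl2* of these were called higher in *siOct4* than in *siNcor1* and none lower. Of the 28, 23 had a difference above 0, as did 46.0% of all tested genes. The list's median was 0.45, against -0.02 over all tested genes. Among 22 tested complement and pattern recognition genes, *C1qtnf3* and *C3* were called higher and none lower (median 0.16, with 15 above 0). None of 20 tested interferon-stimulated genes was called (median 0.15), and the largest differences were 0.71 for *Gbp2*, 0.65 for *Gbp3* and -0.44 for *Bst2* (adjusted p = 0.233, 0.687 and 0.284).

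Among the other genes with the largest positive differences, several encode matrix or cell surface proteins. *Tnn*, the matrix glycoprotein tenascin-N, was at 8.54 and 7.60 CPM in *siNcor1* and 23.8 and 26.1 CPM in *siOct4*, a difference of 1.61 (SE 0.28, adjusted p = 0.0202). *Coch*, which encodes the secreted protein cochlin, was at 5.63 and 6.03 CPM against 18.5 and 16.5 CPM (1.56, SE 0.23, adjusted p = 0.0088). Both genes were about as high in the shallow library as in the deep one. *Col7a1*, the collagen of anchoring fibrils, was at 24.3 and 27 CPM in *siNcor1* and 47.7 and 66.8 CPM in *siOct4* (1.14, SE 0.17, adjusted p = 0.0101). *Sdc3*, a transmembrane heparan sulfate proteoglycan, was at 67.1 and 50.6 CPM against 108 and 131 CPM (1.02, SE 0.15, adjusted p = 0.00953). For these last 2 genes replicate 2 of *siOct4* was the higher one.

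The other members of this group of 15 had various functions. *Adra2a*, an adrenergic receptor, rose by 1.19, *Avpr1a*, a vasopressin receptor, by 1.18, and *Flt4*, a receptor of lymphatic growth factors, by 1.24 (adjusted p = 0.0124, 0.0457 and 0.0296). *Car8*, a carbonic anhydrase-related protein, rose by 1.82 from 29 and 23 reads in *siNcor1* to 66 and 60 reads in *siOct4* (adjusted p = 0.0314). *Ces1f*, a carboxylesterase of a family of close copies, rose by 1.20, *Crispld2*, a secreted cysteine-rich protein, by 1.16, and *Fxyd5*, a regulator of the sodium pump, by 1.11 (adjusted p = 0.0145, 0.0204 and 0.0202).

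**Figure D2:**
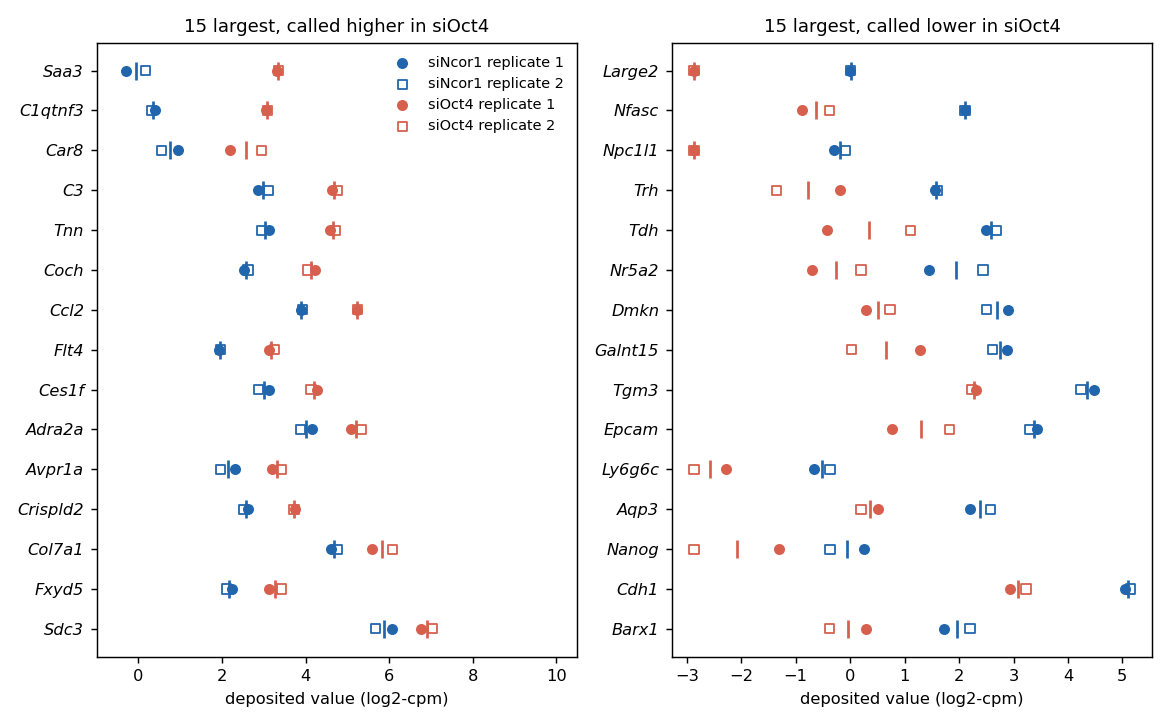
Deposited log2-cpm values in the 4 day 3 libraries of the 15 genes with the largest positive (left) and the 15 with the largest negative (right) difference among those called. Circles are replicate 1, squares replicate 2 and vertical bars group means. The knockdowns do not overlap for any of the 30 genes, and the *siOct4* values of *Large2* and *Npc1l1* lie at the floor of the scale.

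Contractile genes leaned to higher values in *siOct4*. Of 33 tested contractile and smooth muscle genes, 32 had a difference above 0 and the median was 0.58, the largest of all lists with at least 10 tested members, but only 3 were called. *Cnn1*, the smooth muscle actin-binding protein calponin, was at 161 and 121 CPM in *siNcor1* and 259 and 288 CPM in *siOct4* (0.97, SE 0.17, adjusted p = 0.0201). *Tpm2*, a tropomyosin of actin filaments, was at 272 and 215 CPM against 377 and 416 CPM, and *Itga5*, the fibronectin receptor subunit, at 233 and 171 CPM against 335 and 405 CPM. Their differences were 0.71 and 0.88 (adjusted p = 0.0286 and 0.0201). In all 3 genes the 2 replicate 2 libraries were the extremes of the 4, the lowest in *siNcor1* and the highest in *siOct4*.

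Matrix genes leaned the same way, again with few calls. Of 43 tested matricellular proteins and proteoglycans, *Tnn*, *Tnc*, *Fbln2* and *Ltbp2* rose and *Mgp* fell (median 0.33, with 33 above 0). *Tnc*, tenascin-C, was at 1040 and 958 CPM in *siNcor1* and 1570 and 1830 CPM in *siOct4*, and *Fbln2*, fibulin-2, at 570 and 460 CPM against 815 and 942 CPM. The differences of *Tnc*, *Fbln2* and *Ltbp2*, a latent TGF-beta binding protein, were 0.77, 0.78 and 0.71 (adjusted p = 0.0457, 0.0231 and 0.0296). *Mgp*, an inhibitor of calcification, went the other way, from 115 and 101 CPM in *siNcor1* to 69.9 and 61.0 CPM in *siOct4* (-0.72, adjusted p = 0.0231). Of 36 tested collagens and basement membrane genes, *Col7a1* and *Nid1*, the linker protein nidogen-1, were called higher and none lower (median 0.28, with 25 above 0). Of 39 tested matrix proteases and inhibitors, 33 had a difference above 0 (median 0.31). Of these, *Adamts15* and *Plau* differed by -1.01 and 0.61 (adjusted p = 0.0685 and 0.203).

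Among 42 tested TGF-beta and BMP pathway genes, a ligand subunit and a BMP antagonist were called higher in *siOct4*. The ligand subunit was *Inhba*, from which activin A is made, at 105 and 91.6 CPM in *siNcor1* and 162 and 179 CPM in *siOct4* (0.80, SE 0.16, adjusted p = 0.0426). The antagonist was the secreted BMP binder *Grem1*, at 165 and 121 CPM against 259 and 288 CPM (0.95, SE 0.19, adjusted p = 0.0379). No member was called lower, and the median was 0.23 with 30 of 42 above 0.

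Early fibroblast regulators were not among the calls. None of 37 tested fibroblast transcription factors was called (median 0.14), and *Snai1*, a repressor of *Cdh1*, was at 49.9 and 37.2 CPM in *siNcor1* and 68.8 and 66.3 CPM in *siOct4* (0.65, adjusted p = 0.119). *Scx* and *Foxf2* differed by 0.51 and 0.50 (adjusted p = 0.663 and 0.885). Of the 10 fibroblast markers, 8 had a difference above 0 and 2 below 0 (median 0.36). The largest differences, 1.00 for *Postn*, 0.72 for *Col1a1* and 0.53 for *Thy1*, missed the threshold (adjusted p = 0.0732, 0.0864 and 0.0843). With voom *Postn* and *Col1a1* were called higher (adjusted p = 0.0486 and 0.0352) and *Thy1* was not (adjusted p = 0.0753). *Pdgfra* was lower in *siOct4*, at 82.9 and 87.5 CPM in *siNcor1* and 71.1 and 72.4 CPM in *siOct4*. None of 28 tested AP-1 and immediate early genes was called (median 0.22), the largest differences being -0.74 for *Atf3*, 0.54 for *Klf2* and 0.46 for *Mafk* (adjusted p = 0.235, 0.751 and 0.207).

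**Figure D3:**
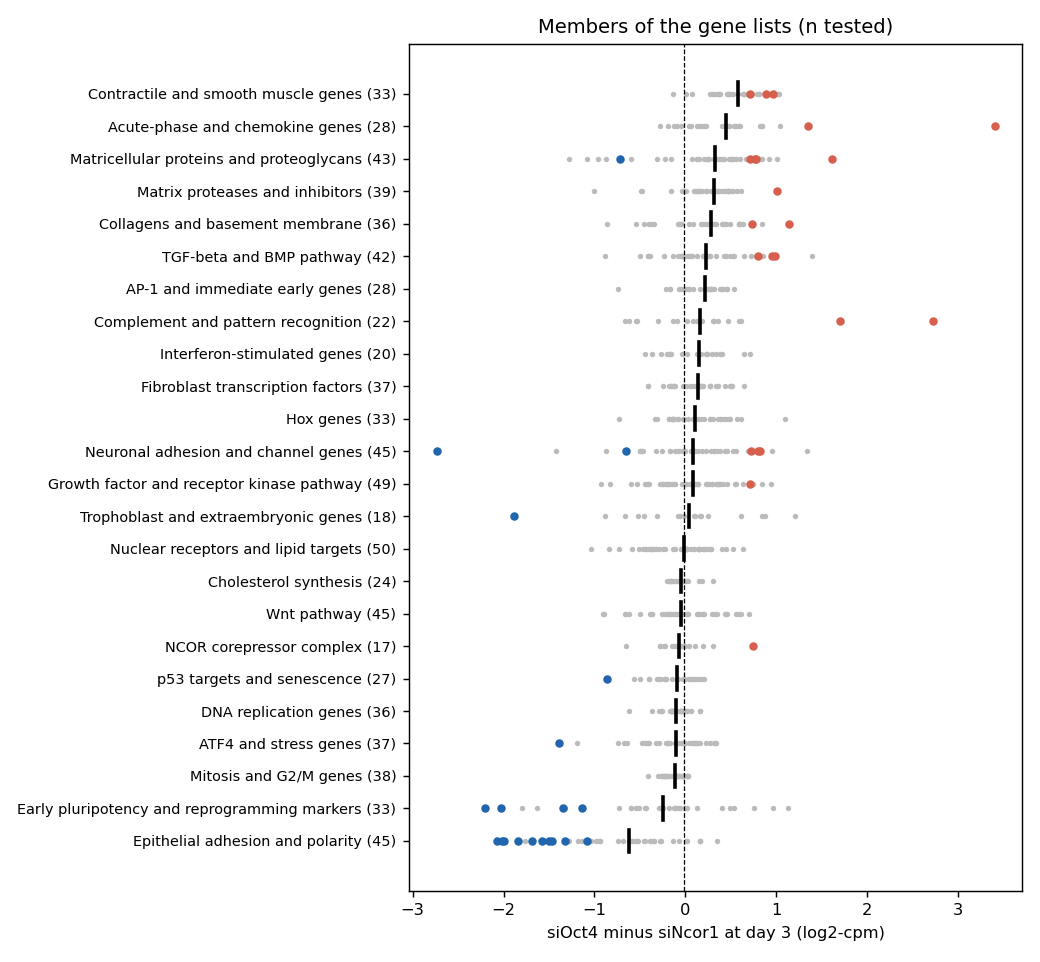
Differences between the knockdowns at day 3 (log2-cpm) of the tested members of 24 gene lists, with 1 grey point per member that was not called, red for members called higher and blue for those called lower. Black bars are list medians and the dashed line is the median over all tested genes at -0.02, and medians run from -0.62 for epithelial genes to 0.58 for contractile genes.

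The genes lower in *siOct4* were led by genes with almost no reads there. *Large2*, a glycosyltransferase that acts on dystroglycan (chromosome 2, 92365046 to 92374869), had 14 and 15 reads in *siNcor1* and no read in either *siOct4* library. With 3 reads over both *siOct4* libraries taken as the limit that a count of 0 allows, its *siNcor1* level was 6.56-fold that limit. *Npc1l1*, an intestinal sterol transporter, had 11 and 14 reads against no read, and its *siNcor1* level was 5.65-fold the same limit. Their adjusted p-values were both 0.00834, and the floor of the log2 values sets the size of their fitted differences. Both folds take the *siNcor1* reads as exact and cover only the counting error of the count of 0.

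*Nfasc* was the lower gene with the largest difference that had reads in every library. It encodes neurofascin, a cell adhesion molecule of axons, and lies on chromosome 1 from 132564690 to 132741797. It had 67 and 72 reads in *siNcor1* and 6 and 5 reads in *siOct4*, or 4.14 and 4.18 CPM against 0.406 and 0.633 CPM. The difference was -2.73 (SE 0.25, adjusted p = 0.000816). *Trh*, the precursor of thyrotropin-releasing hormone, had 45 and 50 reads in *siNcor1* and 11 and 2 reads in *siOct4* (-2.35, SE 0.31, adjusted p = 0.00596). *Tdh*, the threonine dehydrogenase that mouse embryonic stem cells use, had 89 and 109 reads against 9 and 16 reads (-2.25, SE 0.36, adjusted p = 0.0139). In *Trh* the shallow library was the lower of the 2 *siOct4* libraries, and in *Tdh* it was the higher one in CPM.

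The 15 genes with the largest negative differences also included *Cdh1* and *Epcam* of the epithelial list. *Cdh1*, which encodes E-cadherin (chromosome 8, 106603351 to 106670246), was at 33.0 and 35.4 CPM in *siNcor1* and 7.52 and 9.24 CPM in *siOct4*. It fell 4.05-fold (-2.02, SE 0.13) and had the lowest adjusted p of the genes named here, 6.11e-05. *Tgm3*, a transglutaminase of the epidermis, was at 22 and 18.7 CPM against 4.81 and 4.56 CPM (-2.08, SE 0.26, adjusted p = 0.00566). *Epcam*, the epithelial adhesion molecule, was at 10.7 and 9.69 CPM against 1.56 and 3.42 CPM (-2.07, SE 0.26, adjusted p = 0.00591). The *siOct4* libraries lay well below the *siNcor1* libraries in all 3 genes. *Dmkn*, the secreted protein dermokine, fell by 2.19, and *Aqp3*, a water and glycerol channel of epithelia, by 2.03 (adjusted p = 0.00355 and 0.00805). *Galnt15*, a mucin-type glycosyltransferase, fell by 2.09 and *Barx1*, a homeobox factor, by 2.01 (adjusted p = 0.0201 and 0.00953).

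Of 45 tested epithelial adhesion and polarity genes, 10 were called lower in *siOct4* than in *siNcor1* and none higher, with 6 above 0 and a median of -0.62. Besides *Cdh1* and *Epcam* these were the tight junction genes *Cldn4*, *Ocln* and *Tjp3*, the keratin gene *Krt8*, the splicing factor gene *Esrp1*, and the membrane protease gene *St14* with its inhibitors *Spint1* and *Spint2*. *Krt8*, a keratin of simple epithelia, was at 5.32 and 6.5 CPM in *siNcor1* and 1.83 and 1.65 CPM in *siOct4* (-1.68, SE 0.16, adjusted p = 0.000816). *Esrp1*, a regulator of epithelial splicing, had 37 and 39 reads against 5 and 5 reads (-1.996, SE 0.26, adjusted p = 0.00591). *St14* was at 15.2 and 16.1 CPM against 7.32 and 7.34 CPM, a fall of 1.08 (adjusted p = 0.00834). The differences of *Spint1*, *Spint2*, *Ocln* and *Tjp3* were -1.84, -1.32, -1.47 and -1.50 (adjusted p = 0.00591, 0.0201, 0.0273 and 0.0457). With voom, 6 of the 45 were called lower instead of 10.

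Of 33 tested pluripotency and reprogramming genes, *Nr5a2*, *Nanog*, *L1td1* and *Fgf4* were called lower and none higher (median -0.25). A difference above 0 was found for 8 of the 33, the largest being 1.13, and 4 of these had an unadjusted p under 0.05. *L1td1*, an RNA-binding protein of pluripotent cells, was the best covered, at 60.9 and 76.5 CPM in *siNcor1* and 20.9 and 34.3 CPM in *siOct4* (-1.34, SE 0.20, adjusted p = 0.0088). *Nr5a2*, a nuclear receptor that can replace OCT4 in reprogramming, had 42 and 91 reads against 7 and 8 reads (-2.20, SE 0.37, adjusted p = 0.019). The *siNcor1* replicates of *Nr5a2* differed by a wide margin, at 2.60 and 5.28 CPM, yet both were above the *siOct4* values of 0.474 and 1.01 CPM. *Fgf4*, a growth factor of pluripotent cells, was at 6.74 and 7.08 CPM against 3.12 and 3.04 CPM (-1.13, adjusted p = 0.0236). *Nanog* rested on 17 and 11 reads against 4 and 0 reads. With voom 4 of the 33 were called lower, *Nr5a2* and *L1td1* among them but not *Fgf4* or *Nanog* (adjusted p = 0.0519 and 0.112).

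Other lists had few or no calls. *Tfap2c*, a trophoblast and epithelial factor with 35 and 35 reads against 4 and 6 reads, was the only called gene of 18 trophoblast and extraembryonic genes (-1.89, adjusted p = 0.0231). *Perp*, a p53 target of desmosomes, fell by 0.86 (adjusted p = 0.00953) as the only one of 27 p53 and senescence genes, and *Slc7a3*, a cationic amino acid transporter, fell by 1.39 (adjusted p = 0.00953) as the only one of 37 ATF4 and stress genes. *Igfbp5*, a binding protein of insulin-like growth factors, rose by 0.71 (adjusted p = 0.0478) as the only one of 49 growth factor and receptor kinase genes. Of 45 neuronal adhesion and channel genes, *Tubb3*, *Ncam1* and *Stmn2* rose by 0.82, 0.80 and 0.72 (adjusted p = 0.0202, 0.0236 and 0.0457), while *Nfasc* and the guidance cue *Ntn1* fell, the latter by 0.65 (adjusted p = 0.038). *Ncor1* was the only called gene among 17 genes of the NCOR complex (median -0.07).

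None of 45 tested Wnt pathway genes, 50 nuclear receptors and lipid targets, 33 *Hox* genes or 24 cholesterol synthesis genes was called, with medians of -0.05, -0.01, 0.10 and -0.04. Cell cycle genes leaned to lower values in *siOct4* without a call. Of 38 mitosis genes, 5 had a difference above 0 (median -0.12), and of 36 DNA replication genes, 6 had one (median -0.10). The largest of these were -0.41 for the checkpoint kinase gene *Bub1* and -0.63 for *E2f2*, a driver of S phase entry (adjusted p = 0.458 and 0.244). Summed levels of both lists overlapped between the knockdowns. Mitosis genes summed to 2950 and 3540 CPM in *siNcor1* and 2990 and 2930 CPM in *siOct4*. The replication genes summed to 2530 and 3020 CPM against 2680 and 2500 CPM. At day 6 the medians were 0.35 and 0.57, with 12 of the 38 and 24 of the 36 called higher and none lower. Over all tested genes 12.1% were called higher and 18.6% lower at day 6.

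Low read counts were found mainly among the genes called lower. Genes with a mean of 20 reads or fewer in the day 3 libraries gave 11 calls, all lower, of 1197 tested, and their median SE was 0.40. Genes with 20 to 50 reads gave 17 lower calls and 1 higher call of 1608. Above 1000 reads the median SE was 0.13 and the calls turned to 19 higher and 6 lower of 2874. With voom the lowest band gave 2 calls and the band of 20 to 50 reads 12, whereas bands above 100 reads gave more calls than the test on log2 values. All 52 genes called higher were also called with voom in the same direction, as were 65 of the 96 called lower. The 31 genes that voom did not call had a median of 48.0 mean reads.

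**Figure D4:**
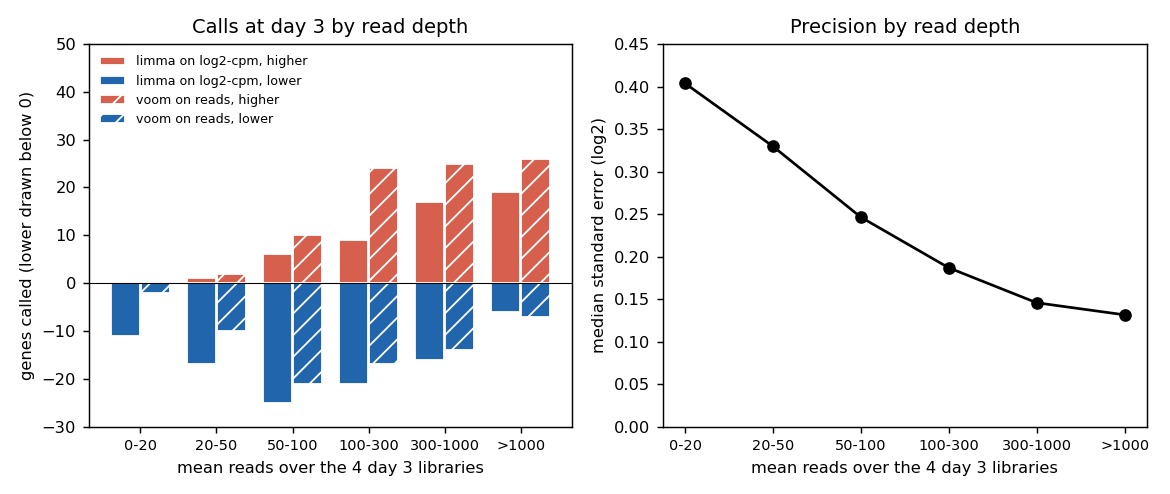
Number of genes called higher (red, above 0) and lower (blue, below 0) in *siOct4* at day 3 by limma on the log2-cpm values (plain) and by voom on the reads (hatched), in bands of mean reads over the 4 day 3 libraries (left), and the median standard error of the difference in each band on the log2 scale (right). In the lowest band there are 11 lower calls by limma and 2 by voom, and the standard error falls from 0.40 to 0.13 across the bands.

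Of the 148 genes, 10 had 3 reads or fewer in the shallow library and 26 had 10 or fewer, all of them called lower. Counts of 5 or fewer reads on the low side left a wide range of possible sizes. For *Ly6g6c*, a surface protein of the LY6 family, 19 reads in *siNcor1* against 1 read in *siOct4* gave a ratio of CPM of 12.9 (95% exact interval of counting error 2.05 to 536). The ratio was 5.2 for *Cldn4* (1.57 to 27.1, 23 against 3 reads), 5.43 for *Lypd6b* (2.14 to 17.6, 40 against 5 reads) and 4.75 for *Nanog* (1.66 to 18.6, 28 against 4 reads). Their adjusted p-values were 0.0388, 0.0268, 0.0241 and 0.0491 on the log2 values, and 0.116, 0.155, 0.0665 and 0.112 with voom. *Large2* and *Npc1l1* were called with voom too (adjusted p = 0.0183 and 0.00639). Of the 5124 genes below the filter, 756 had no read in the shallow library against 386 in the other *siOct4* library, and only *Cyp11a1* (9 and 18 reads in *siNcor1*, 1 and 0 in *siOct4*) and *Ivl* (8 and 7 against 38 and 15 reads) passed when no filter was used.

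Values of the shallow library moved with the higher calls. In 44 of the 52 genes called higher, *siOct4* replicate 2 was above replicate 1, by a median of 0.14 over the 52, whereas over all tested genes its median was -0.03. In 39 of the 52, *siNcor1* replicate 2 was below replicate 1. Without *siOct4* replicate 2, 29 of the 148 calls remained in the same direction, and only *Saa3* and *Lox*, the collagen crosslinking enzyme named here after its value was seen, remained among the higher ones. Among the 96 genes called lower, replicate 2 was below replicate 1 in 45 and above it in 49, and 27 calls remained without it. Without this library the median was 0.45 for the contractile list and 0.18 for the collagen list, where all libraries gave 0.58 and 0.28. *Cnn1*, *Tpm2* and *Itga5* then differed by 0.89, 0.64 and 0.75. The differences of *Cdh1*, *Epcam*, *Krt8*, *Esrp1* and *Spint1* were then -2.16, -2.61, -1.61, -2.34 and -2.11. *Nfasc*, *Cdh1* and *Krt8* were called whichever day 3 library was left out.

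The day 6 libraries gave no value to the day 3 difference, although they share its estimate of spread. At day 6, 4251 genes (30.7%) were called, 1678 higher (12.1%) and 2573 lower (18.6%) in *siOct4*. Of the 52 genes called higher at day 3, 35 were called lower at day 6 and 1, *Tubb3*, was called higher. *Tubb3* was thus the only gene called higher at both days, by 0.82 and 1.71, while 6 of the 52 had a difference above 0 at day 6. The median of the 52 moved from 0.90 at day 3 to -0.68 at day 6, and 46 were below 0. *Tnn* went from 1.61 to -1.52 and *Ccl2* from 1.35 to -1.04, both called at both days. *Saa3* and *C3* differed by 0.28 and 0.47 at day 6 and were not called (adjusted p = 0.67 and 0.275).

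Of the 96 genes called lower at day 3, 20 were called lower and 26 higher at day 6, and 50 were not called. Their median moved from -1.36 to -0.01. *Cdh1* was 0.68 lower in *siOct4* than in *siNcor1* at day 6 (adjusted p = 0.0035), *Krt8* 0.94 lower (adjusted p = 0.00159) and *Cldn4* 3.08 lower (adjusted p = 0.000172). In both knockdowns these genes were at higher CPM at day 6 than at day 3. *Cdh1* was at 165 and 158 CPM in *siNcor1* and 105 and 96.8 CPM in *siOct4* at day 6. *Barx1* was 1.89 higher in *siOct4* at day 6 (adjusted p = 0.00128). *Nfasc* was at 11 and 12.3 CPM in *siNcor1* and 9.93 and 8.91 CPM in *siOct4* at day 6, a difference of -0.30 that was not called (adjusted p = 0.379). *Nanog*, with few reads at day 3, was at 32.2 and 31.9 CPM in *siNcor1* and 13.0 and 16.7 CPM in *siOct4* at day 6 (-1.11, adjusted p = 0.0687).

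**Figure D5:**
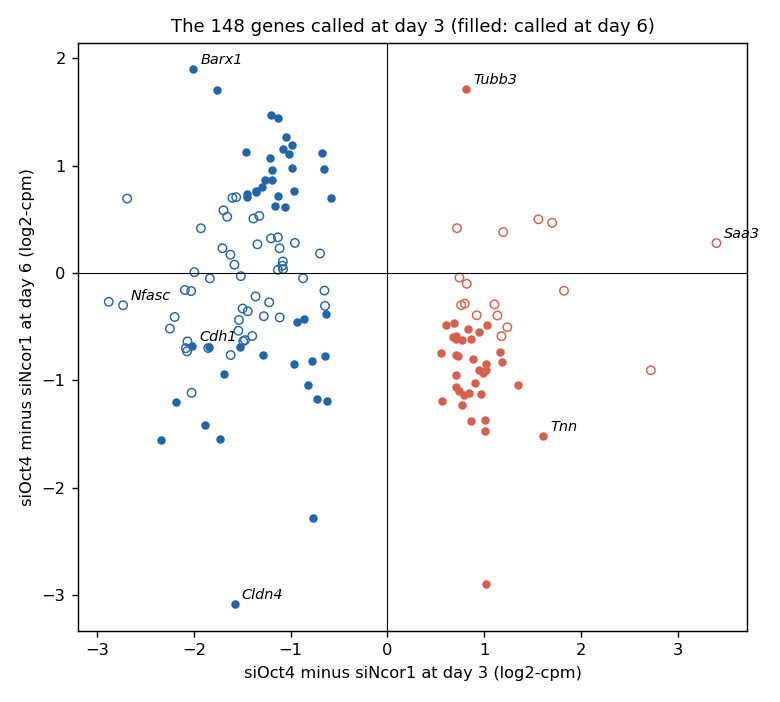
Difference between the knockdowns (*siOct4* minus *siNcor1*, log2-cpm) at day 6 against that at day 3 for the 148 genes called at day 3, with filled points for genes also called at day 6. Of the 52 genes on the right (higher at day 3), 46 lie below 0 at day 6, while the 96 on the left are split, 48 on each side.

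Promoter sequences (250 bases before to 50 after the start, RefSeq, GRCm38.p6) were found for 38 of the 52 genes called higher and 60 of the 96 called lower. They are shown for the genes with the largest differences that had one, with any match to 7 short motifs in capitals. The promoter of *Saa3* (chr7:46715627-46715926, minus strand) held a C/EBP-type match (TTGCNNAA) that begins 99 bases before the start and a CACCTG match 4 bases before it, and that of *C1qtnf3* (chr15:10952082-10952381, plus strand) a TATAAA match 6 bases before it.
Saa3: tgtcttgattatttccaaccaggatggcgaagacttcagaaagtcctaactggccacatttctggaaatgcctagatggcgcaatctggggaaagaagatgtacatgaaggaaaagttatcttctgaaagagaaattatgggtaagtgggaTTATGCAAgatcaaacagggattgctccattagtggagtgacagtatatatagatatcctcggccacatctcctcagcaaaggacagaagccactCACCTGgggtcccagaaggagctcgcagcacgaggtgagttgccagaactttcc
C1qtnf3: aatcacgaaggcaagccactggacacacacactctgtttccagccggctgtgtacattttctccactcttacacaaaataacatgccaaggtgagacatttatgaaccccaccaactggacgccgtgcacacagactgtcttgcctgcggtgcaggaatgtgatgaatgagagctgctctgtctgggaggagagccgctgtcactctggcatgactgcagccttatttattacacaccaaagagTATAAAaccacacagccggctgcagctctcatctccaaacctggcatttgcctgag

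The promoters of *Nfasc* (chr1:132707277-132707576, minus strand) and *Npc1l1* (chr11:6230196-6230495, minus strand) held none of the 7 motifs. The *Nfasc* window lies inside the gene span given above, so it belongs to a start within the gene and not to its outermost one. Which start these cells used was not tested.
Nfasc: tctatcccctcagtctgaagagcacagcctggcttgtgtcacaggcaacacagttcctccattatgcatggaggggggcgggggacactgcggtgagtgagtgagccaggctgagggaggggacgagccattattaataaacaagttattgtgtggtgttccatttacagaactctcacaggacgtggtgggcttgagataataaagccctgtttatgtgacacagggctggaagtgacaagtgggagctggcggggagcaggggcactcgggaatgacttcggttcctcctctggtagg
Npc1l1: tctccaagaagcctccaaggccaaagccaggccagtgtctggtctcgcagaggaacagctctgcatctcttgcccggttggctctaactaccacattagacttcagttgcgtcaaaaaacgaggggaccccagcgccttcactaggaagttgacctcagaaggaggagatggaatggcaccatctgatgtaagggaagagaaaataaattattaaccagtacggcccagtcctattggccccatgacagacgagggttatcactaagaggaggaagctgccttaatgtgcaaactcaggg

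CACCTG, the E-box bound by SNAI and ZEB repressors, was present on either strand in 38.3% of the promoters of genes called lower, in 13.2% of those of genes called higher and in 17.1% of those of all tested genes. The promoters of *Epcam* (chr17:87635729-87636028, plus strand) and *Krt8* (chr15:102004293-102004592, minus strand) are shown because they belong to called epithelial genes and hold it, and were chosen after this was seen. Capitals mark CACCTG or its complement CAGGTG in both, and TATAAA on either strand in *Krt8*.
Epcam: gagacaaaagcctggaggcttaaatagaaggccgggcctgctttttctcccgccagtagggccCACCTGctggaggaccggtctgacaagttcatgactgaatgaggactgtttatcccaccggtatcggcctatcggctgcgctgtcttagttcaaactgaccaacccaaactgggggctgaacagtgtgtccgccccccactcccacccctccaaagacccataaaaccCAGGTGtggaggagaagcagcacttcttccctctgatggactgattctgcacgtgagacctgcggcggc
Krt8: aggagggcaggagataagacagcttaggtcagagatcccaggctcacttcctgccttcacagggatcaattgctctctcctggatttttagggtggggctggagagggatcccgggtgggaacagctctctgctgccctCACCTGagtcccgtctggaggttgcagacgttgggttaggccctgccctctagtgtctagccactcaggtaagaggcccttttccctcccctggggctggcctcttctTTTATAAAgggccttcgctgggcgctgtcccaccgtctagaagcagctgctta

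TTGCNNAA was present in 18.4% of promoters of genes called higher, 6.67% of those called lower and 7.89% of those of all tested genes, and TATAAA in 18.4%, 16.7% and 6.75%. The AP-1 motif TGANTCA was present in 2.63%, 15% and 4.69%, the KLF motif CCACACCC in 2.63%, 8.33% and 3.76%, the NF-kB motif GGANTTTCC in 2.63%, 1.67% and 1.25%, and the octamer ATGCAAAT in 2.63%, 1.67% and 1.36%. These shares are a description with no test, and binding was not measured here.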

How the data were processed

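RNA was depleted of ribosomal RNA and sequenced as paired reads, which the authors aligned to mm10 with STAR. The deposited values are log2-cpm values (log2 of reads scaled to library size) with a prior count, made by the authors with edgeR 3.20.9 per the submitters' notes. The tool that counted reads on genes, and whether it used strand, is not given in the sources used here. Whole reads were recovered from the steps of the values (100% within 0.1 of a whole number) and used for depths, CPM and voom. Replicate libraries differed by more than sampling noise, but whether they came from separate embryos is not given, so p-values measure the spread between these libraries.

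The filter kept genes averaging 1 CPM or more over the 8 libraries, which were tested with limma 3.58.1 (R 4.3.3; trend, all 8 libraries, group means, two-sided, Benjamini-Hochberg, adjusted p under 0.05). Differences are on the deposited scale, whose prior count understates changes of low genes. Alternatives were other scalings, filters, pseudocounts, voom, a replicate block and leaving out each day 3 library. Count intervals are exact (95%) and cover counting error only. The named genes were *Ncor1*, *Pou5f1*, *Sox2*, *Klf4*, *Myc*, the 15 largest called differences in each direction with replicates that did not overlap, called members of 30 gene lists (for lists with fewer than 2, up to 3 members with the largest differences), and called genes with 3 reads or fewer in both libraries of a group. Some genes that the rule names are not reported here. The genes and lists were chosen with earlier results of these data known. Members of families with close copies, such as *Saa3* and *Ces1f*, may share reads.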

Additional observations from a re-analysis of the deposited data

Results flagged for a closer look

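For 68 of the 117 genes examined by name the difference between the knockdowns changed from day 3 to day 6 (limma interaction term, adjusted p under 0.05 over all tested genes, of which 2867 passed). Values are the day 6 difference minus the day 3 difference, *siOct4* minus *siNcor1*, on the log2 scale, and 30 were positive and 38 negative. For genes named for their day 3 difference this term uses the same day 3 values and is no independent test. The reads of the cassette factors moved up, by 1.85 for *Pou5f1*, 1.74 for *Klf4*, 1.64 for *Myc* and 1.58 for *Sox2*, and *Ncor1* itself moved by -0.79.

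Of the acute-phase and complement lists, *Saa3* moved by -3.12, *C1qtnf3* by -3.63 and *Ccl2* by -2.39. The interferon-stimulated *Gbp2* and *Bst2* moved by -1.92 and 1.00, and the blood cell marker *Csf1r* by -1.89. Matrix genes and their regulators moved by -3.13 for *Tnn*, -1.997 for *Tnc*, -1.39 for *Fbln2*, -1.66 for *Ltbp2*, -1.50 for *Nid1* and -1.53 for *Col7a1*, and by -1.68 for *Plau*, -1.51 for *Sdc3*, -1.90 for *Crispld2* and -1.06 for *Coch*. Contractile genes moved by -2.09 for *Cnn1*, -1.77 for *Tpm2*, -1.68 for *Itga5* and -1.30 for *Des*, and fibroblast genes by -1.73 for *Col1a1*, -1.27 for *Postn*, -1.21 for *Thy1* and -1.42 for *Snai1*. Ligands, antagonists and receptors moved by -1.85 for *Grem1*, -1.93 for *Inhba*, -1.32 for *Igfbp5*, -1.95 for *Fgf7*, -1.53 for *Flt1* and -1.74 for *Flt4*, and by -2.01 for *Adra2a*, -1.77 for *Avpr1a* and 1.58 for *Pdgfb*. The remaining downward changes were -1.99 for *Car8*, -1.40 for *Fxyd5*, -1.92 for *Prl2c3*, -1.65 for *Hoxc13* and -1.08 for *Ncam1*.

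Epithelial genes moved up, by 1.34 for *Cdh1*, 1.34 for *Epcam*, 2.005 for *Esrp1*, 1.15 for *Spint1*, 1.86 for *Spint2*, 1.12 for *St14* and 0.75 for *Krt8*, except *Cldn4* at -1.50. Pluripotency and metabolic genes moved by 1.79 for *Nr5a2*, 1.61 for *L1td1*, 1.16 for *Fgf4*, 1.73 for *Tdh*, 1.89 for *Slc7a3* and 0.85 for *Dhcr7*. Other genes called lower at day 3 moved by 2.61 for *Large2*, 3.38 for *Npc1l1*, 2.43 for *Nfasc* and 3.90 for *Barx1*, and by 1.94 for *Galnt15*, 1.38 for *Tgm3* and 1.86 for *Aqp3*. Cell cycle and other genes moved by 0.89 for *Bub1*, 0.94 for *E2f2*, 1.89 for *Zbtb16* and 0.90 for *Tubb3*. No group had the 4 samples needed to look for a sample far from the others.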

How the results depend on the processing

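The day 3 calls, 148 with 52 higher and 96 lower, depended most on the libraries and on the model of the spread. Leaving out 1 day 3 library, with the lone library assumed to vary like the other groups, gave 3 to 50 calls, 0 to 5 higher and 3 to 45 lower, of which 2 to 16 were called at day 6 in the same direction and 0 to 13 in the opposite direction, where all libraries gave 21 and 61. The lowest counts came without either *siNcor1* library. Fewer samples per contrast widen its standard error by construction. Without the trend of variance on level, 43 genes were called, 7 higher and 36 lower, with 8 in the same and 16 in the opposite direction at day 6. With a mean of at least 10 CPM, 81 genes were called of 9223 tested, 46 of them lower, with 13 and 38 at day 6. With only the 4 day 3 libraries 212 genes were called, 105 higher and 107 lower, so the directions were nearly even. In this fit 49.5% of the calls were higher, where the main fit gave 35.1%, and it gives no day 6 value. With voom 87 were higher. With voom and without *siOct4* day 3 replicate 2, added after seeing the data, 20 genes were called, 5 higher and 15 lower, with 6 and 4 at day 6. With library totals without *Gm26917*, an RNA that took 15.5% to 16.6% of the day 3 reads, 33 genes were called in the same direction at day 6. The cause of these shifts was not tested.

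With the replicate number as a replicate block, 222 genes were called, 85 of them higher, with 37 in the same and 105 in the opposite direction at day 6. The labels do not say that the numbers pair the samples, and deviations of same-numbered day 3 libraries correlated at 0.0981. Of the named genes that were not called, 6 turned sign when 1 library was left out. Without replicate 1 and without replicate 2 of *siNcor1* they were 0.0342 and -1.0406 for *Gdf15*, 0.6424 and -0.0282 for *Fdps*, and -0.1101 and 0.027 for *Tek*. Without replicate 1 and without replicate 2 of *siOct4* they were 0.0277 and -0.1646 for *Klf4*, 0.0044 and -0.1097 for *Myc*, and 0.138 and -0.0308 for *Sox2*, which was also -0.0308 with voom without replicate 2. Depth limits the genes of few reads, for which 3 reads in the shallow library equal 0.380 CPM.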
